A study of Mus musculus with 6 samples.

Results

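The unfolded protein response (UPR) was examined through 10 genes, the rows of the deposited count table whose gene name is Ern1, Eif2ak3, Atf6, Xbp1, Atf4, Ddit3, Herpud1, Manf, Creld2 or Hyou1, out of 29199 genes in the table. They were listed by name as sensors, transcription factors and targets of endoplasmic reticulum (ER) stress. All 10 passed the filter on low counts and were tested among 18321 genes.

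Cells that fold many secreted or membrane proteins meet unfolded protein in the ER through sensors in its membrane. IRE1α removes a short intron from the Xbp1 messenger RNA, PERK phosphorylates the translation factor eIF2α and so favours translation of ATF4, and ATF6 is cut in the Golgi to release a transcription factor. Together these branches raise ER chaperones, disposal of misfolded protein and, when stress lasts, the factor CHOP, and activated T cells use them as secretion and growth begin.

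The cells were regulatory T cells (Treg), CD4+ cells that restrain other T cells, sorted from the spleen 3 weeks after a bone marrow graft as CD4+ cells with the Thy1.1 marker of the injected Treg. Recipients were irradiated C57BL/6 J mice or CD45.1+ congenic mice of that strain (B6), and which of these each library came from is not given in the sources used here. Each was given equal parts of B6 and semi-allogeneic B6D2F1 marrow, wild-type (WT) Treg grown from B6 Foxp3-Thy1.1 mice with IL-2, TGF-β and beads bearing anti-CD3 and anti-CD28, and naive conventional CD4 T cells (Tconv). The Tconv were WT in 3 libraries and knocked out (KO) for the heterochromatin protein HP1α in the other 3. The deletion came from a floxed Hp1a allele and a CMV-cre transgene, which acts in all tissues, on a mixed 129/Sv and C57BL/6 background with littermate controls. The WT and mutant littermates were 6 to 12 weeks old, and the age of the other mice is not given in the sources used here. The Treg themselves were WT in both groups, so the comparison asked whether the Tconv genotype left a mark on the RNA of the Treg. Libraries are named here by the Tconv genotype and the replicate number of the labels, as WT-1 to WT-3 and KO-1 to KO-3. The labels do not say whether the 3 libraries of a group came from separate mice, and p-values then measure only the spread between these libraries.

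The 6 libraries held 87421755 to 119078882 counts each. Library WT-3 stood apart: 7 red cell markers summed to 6155 CPM (counts per 1e6 counts) there and to 393 to 736 in the other 5 libraries, and 8 neutrophil markers to 1824 against 41.4 to 226. Library KO-2 had 0.972% of its counts on mitochondrial genes, against 2.52% to 2.88% elsewhere. The 8 Treg markers summed to 4601 to 5264 CPM with WT Tconv and 4588 to 4953 CPM with HP1α KO Tconv, and 6 of the 8 overlapped between the groups, among them Foxp3 at 154 to 252 CPM. Ctla4 was lower with HP1α KO Tconv without overlap (log2 fold change -0.38, adjusted p 0.232 by edgeR and 0.0414 by DESeq2) and Thy1 was higher without overlap (0.27, 0.275 and 0.137). Over all genes tested, the groups lay apart for 23.0%, with 11.6% lower and 11.5% higher. Plasma cells carry a high UPR, and 13 plasma cell markers summed to 614 to 701 CPM with WT Tconv and 605 to 703 CPM with HP1α KO Tconv (exact permutation test, two-sided p = 0.8, where 0.1 is the smallest it can give). Most of that sum was Ighm, at 570.1 to 678 CPM. Without Ighm the list summed to 122 CPM in WT-3 and to 19 to 38.7 CPM elsewhere, and 11 of its 13 genes were highest in WT-3. Sdc1 and Mzb1 were at 0.62 and 0.91 CPM there and lower elsewhere, Jchain was at 10.6 against 2.88 CPM or less, Igkc at 52.6 against 12.5 to 21.4 CPM and Ighg2c at 24.8 against 4.98 CPM or less. WT-3 was also the highest library for Xbp1, and the part of plasma cell RNA in that level was not tested. Among 11 genes of handling and heat stress, Hsph1 (124.6, 138 and 181 CPM against 82.7, 98.2 and 93.8), Egr1 and Dusp1 were lower with HP1α KO Tconv without overlap, at log2 fold changes of -0.69, -0.32 and -0.22, where 11.6% of all genes tested were lower without overlap, and Fos was higher without overlap, at 0.30. All 4, named like Ctla4 and Thy1 after their values were seen, had an unadjusted edgeR p under 0.05 and an adjusted p of 0.209 or more, and Hsph1 passed with DESeq2 (adjusted p 0.00028). Over the whole list 5 of the 11 genes were higher and 6 lower, and the list sums overlapped between the groups. Of all genes tested, 14.5% had an unadjusted p under 0.05 in either direction. The 3 genes lower without overlap had the direction of the sensor genes described next, and the part of handling in those levels was not tested. The 8 B cell markers summed to 14.4 to 26.3 and 16.6 to 22.0 CPM in the groups. In bulk RNA, fewer cells of a type and less RNA per cell cannot be told apart.

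No UPR gene passed the test. With the edgeR quasi-likelihood test and Benjamini-Hochberg adjustment over all genes, 0 of the 10 had an adjusted p under 0.05, as did 0.0% of the 18321 genes tested, and with DESeq2 0 of 10 passed against 4.35% of the genes it adjusted, 3.03% lower and 1.31% higher. An unadjusted p under 0.05 was found for 2 of the 10, the sensor genes Ern1 and Eif2ak3, both lower with HP1α KO Tconv, where 7.52% of all genes tested were lower and 14.5% reached it in either direction. The libraries of the groups did not overlap for 4 of the 10, and all 4 were lower with HP1α KO Tconv, where 11.6% of all genes were lower without overlap and 23.0% lay apart in either direction. These 4 were the 3 sensor genes and Xbp1. The median log2 fold change of the 10 genes, HP1α KO Tconv over WT Tconv, was -0.05, and that of all genes tested was -0.01. Without library WT-3 the median of the 10 was -0.0087, and Ern1 alone had an unadjusted p under 0.05, where 11.2% of the 18678 genes of that fit did and their median was 0.0078.

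**Figure D1:**
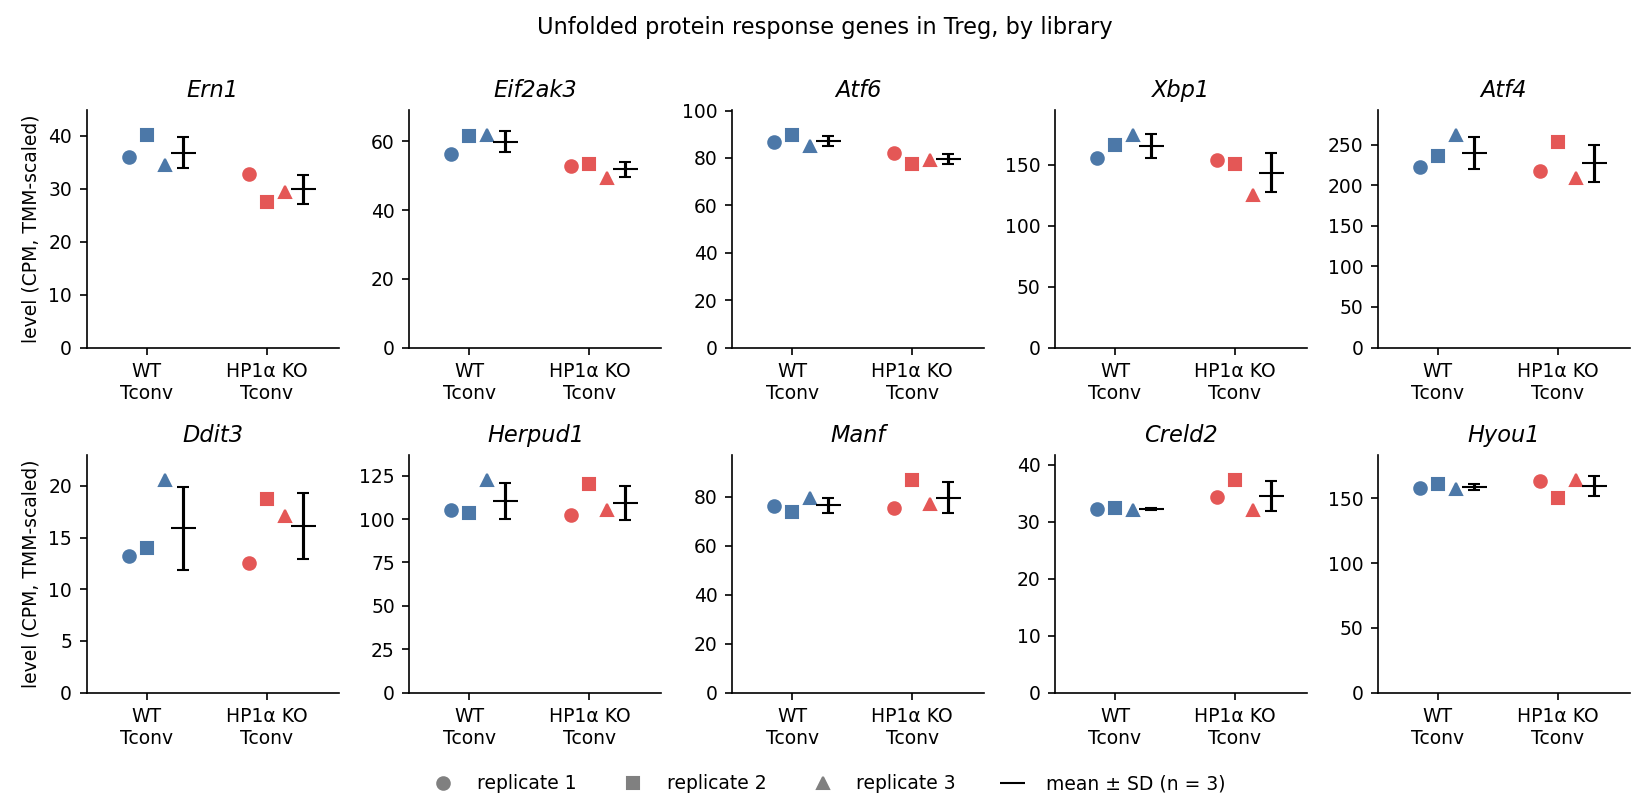
Level of each of the 10 UPR genes in each library, as CPM on TMM-scaled totals on a linear axis from 0, by group and replicate, with the mean and SD of 3 libraries in black. Ern1, Eif2ak3, Atf6 and Xbp1 were lower in every library with HP1α KO Tconv than in any with WT Tconv, and the other 6 genes overlapped.

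The sensors are described first. Ern1 (ENSMUSG00000020715, GRCm39 chromosome 11, 106283818 to 106378686, minus strand) encodes IRE1α, the kinase and endoribonuclease of the response. Its level was 36.0, 40.2 and 34.4 CPM in WT-1, WT-2 and WT-3 and 32.9, 27.5 and 29.4 CPM in KO-1, KO-2 and KO-3, and the same order of libraries is used for every gene. The highest library with HP1α KO Tconv, KO-1, lay just below the lowest with WT Tconv, WT-3. Means were 36.9 CPM ± 2.95 (SD, n = 3) and 29.9 CPM ± 2.73 (SD, n = 3). On the log2 scale Ern1 was lower by a fold change of -0.30 (standard error 0.0942), with a 95% interval from -0.52 to -0.08. Its edgeR unadjusted p was 0.0122 and its adjusted p was 0.237, and the DESeq2 adjusted p was 0.096. Among the 10 genes Ern1 had the lowest log2 fold change and the smallest p in edgeR.

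Eif2ak3 (ENSMUSG00000031668, chromosome 6, 70821461 to 70882235, plus strand) encodes PERK, the eIF2α kinase of the ER. Its level was 56.4, 61.5 and 61.8 CPM with WT Tconv and 52.8, 53.3 and 49.4 CPM with HP1α KO Tconv. The groups did not overlap, with WT-1 the lowest of the first group and KO-3 the lowest of the second. This gave a log2 fold change of -0.21 (standard error 0.0701) and a 95% interval from -0.37 to -0.05. The adjusted p was 0.252 with edgeR and 0.188 with DESeq2. Without library WT-3 its log2 fold change was -0.18, with an unadjusted edgeR p of 0.0538.

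Atf6 (ENSMUSG00000026663, chromosome 1, 170532026 to 170696208, minus strand) encodes the sensor that becomes a transcription factor once cut. Its level was 86.7, 89.6 and 85.2 CPM with WT Tconv and 81.9, 77.6 and 79.0 CPM with HP1α KO Tconv. The groups lay apart by a small margin, and the spread within each was narrow, with an SD of 2.22 and 2.21 CPM. Atf6 had a log2 fold change of -0.13 (standard error 0.0611), and its 95% interval from -0.27 to 0.01 includes 0. The edgeR adjusted p was 0.370.

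Xbp1 (ENSMUSG00000020484, chromosome 11, 5470606 to 5483027, plus strand) encodes the transcription factor that IRE1α activates by splicing. The 26-base gap that the annotation gives for the spliced form lies at chr11:5474278-5474303 on the plus strand, inside exon 4 of the first annotated transcript, and is shown in capitals because it carries the readout of this branch. A G stands at the first base of the gap and just after it, so moving the gap by 1 base gives the same spliced RNA, and the capitals do not mark the cuts of IRE1α themselves:
Xbp1 intron: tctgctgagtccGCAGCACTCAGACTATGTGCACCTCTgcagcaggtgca
Of 24 annotated transcripts of the gene, 19 hold these bases and 1 lacks them as a gap between exons. The deposited values are sums over the gene, so they pool spliced and unspliced Xbp1, and splicing was not measured here.

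The Xbp1 level was 155, 167 and 174 CPM with WT Tconv and 154, 151 and 125 CPM with HP1α KO Tconv. KO-3 was well below the other libraries, while WT-1 and KO-1 were almost level. For Xbp1 the log2 fold change was -0.21 (standard error 0.0928), the 95% interval ran from -0.42 to 0.01 and the adjusted p by edgeR was 0.363. Without library KO-3 it was -0.12. The groups also lay apart with the RLE scaling, but they overlapped when only total counts were used for scaling. In the annotation, 22.0% of the exonic bases of Xbp1 are shared with Ccdc117 on the opposite strand, which held 58616 counts. The counts of Xbp1 are therefore uncertain: the strand setting of the counting is not given in the sources used here, and how far the overlap affects the counts was not tested.

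**Figure D2:**
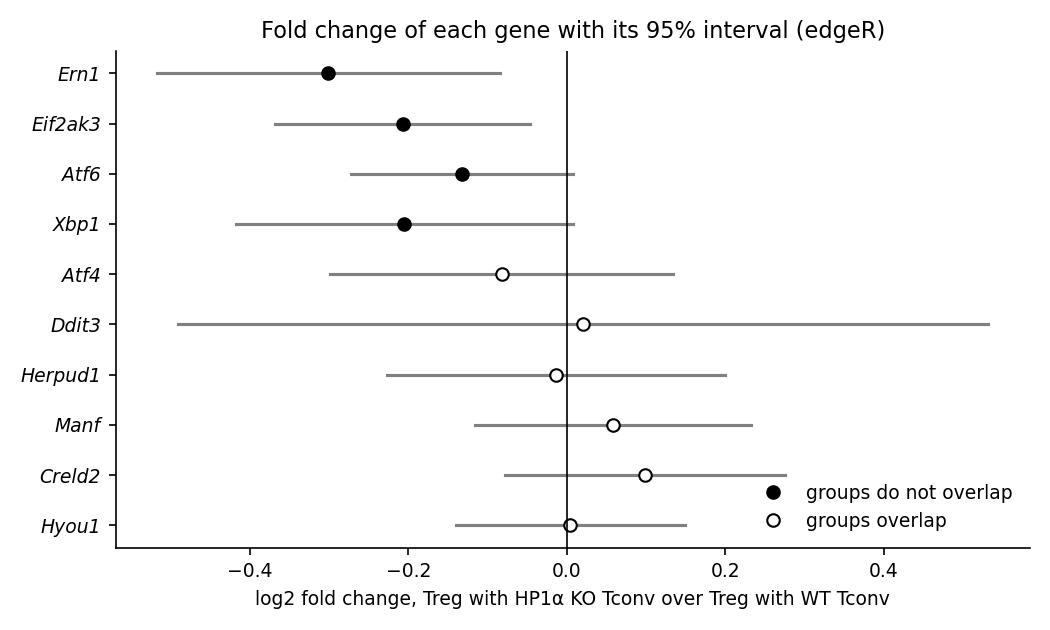
Log2 fold change of each UPR gene from edgeR, HP1α KO Tconv over WT Tconv, with its 95% interval as a grey line. Filled points mark the 4 genes whose groups did not overlap, and the intervals of Ern1 (-0.52 to -0.08) and Eif2ak3 (-0.37 to -0.05) lie below 0 before adjustment for the genes tested.

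The other transcription factors of the list did not separate the groups. Atf4 (ENSMUSG00000042406, chromosome 15, 80139372 to 80141745, plus strand) encodes the factor that is translated when eIF2α is phosphorylated, and its RNA level does not report that control of translation. It was at 223, 236 and 262 CPM with WT Tconv and 218, 253 and 209 CPM with HP1α KO Tconv. WT-3 was the highest library and KO-3 the lowest, and the groups overlapped. The 95% interval around the log2 fold change of -0.08 ran from -0.30 to 0.13, and the adjusted p by edgeR was 0.721. Single libraries moved the Atf4 fold change, to -0.17 without KO-2 and -0.016 without WT-3.

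Ddit3 (ENSMUSG00000025408, chromosome 10, 127124268 to 127132163, plus strand) encodes CHOP, a factor of prolonged stress. It was at 13.2, 14.0 and 20.5 CPM with WT Tconv and 12.6, 18.7 and 17.1 CPM with HP1α KO Tconv. One library with WT Tconv and a pair with HP1α KO Tconv were high, so the groups overlapped over nearly their whole range. Ddit3 had the widest interval of the 10 genes, from -0.49 to 0.53 around a log2 fold change of 0.02, and an adjusted p by edgeR of 0.975. Its sign changed with the libraries left out, between -0.10 when KO-2 was left out and 0.25 when WT-3 was. It shares 64.1% of its exonic bases with Mars1 on the opposite strand. The library kit keeps strand, but with the setting unknown the counts of Ddit3 are uncertain too.

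The groups overlapped for all 4 targets of the list. Herpud1 (ENSMUSG00000031770, chromosome 8, 95113022 to 95123141, plus strand) encodes a membrane protein of ER-associated degradation. It was at 105, 103 and 122 CPM with WT Tconv and 102, 120 and 105 CPM with HP1α KO Tconv. A single library of each group was high, WT-3 and KO-2. Herpud1 had a log2 fold change of -0.01 and a 95% interval from -0.23 to 0.20, and the fold change was 0.07 without library WT-3 and 0.03 with total counts as the only scaling.

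Manf (ENSMUSG00000032575, chromosome 9, 106715511 to 106769727, minus strand) encodes a small secreted protein kept in the ER until stress. It was at 76.2, 73.8 and 79.7 CPM with WT Tconv and 75.3, 86.8 and 77.2 CPM with HP1α KO Tconv. Apart from KO-2, the libraries lay close together. The 95% interval of its log2 fold change of 0.06 ran from -0.12 to 0.23, and the fold change was -0.0064 without that library. Manf shares 32.6% of its exonic bases with Rbm15b on the same strand, through long transcripts of the later annotation. Rbm15b held 44048 counts and Manf 46118, so the counts of Manf are uncertain as well. How far this overlap affects them was not tested.

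Creld2 (ENSMUSG00000023272, chromosome 15, 88703795 to 88710890, plus strand) encodes an ER protein of the disulphide isomerase kind. It was at 32.2, 32.4 and 32.1 CPM with WT Tconv, the tightest group of the 10 genes, and at 34.3, 37.3 and 32.0 CPM with HP1α KO Tconv. KO-3 lay just below the WT Tconv libraries, so the groups overlapped, although with total counts as the only scaling all 3 lay above them. Creld2 had a log2 fold change of 0.10, a 95% interval from -0.08 to 0.28 and an adjusted p by edgeR of 0.593, and the fold change was 0.041 without KO-2 and 0.15 without KO-3.

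Hyou1 (ENSMUSG00000032115, chromosome 9, 44290418 to 44303666, plus strand) encodes a large ER chaperone of the HSP70 family. It was at 158, 161 and 157 CPM with WT Tconv and 163, 150.4 and 164 CPM with HP1α KO Tconv. The WT Tconv libraries sat inside the range of the others. Its log2 fold change was 0.00, the 95% interval ran from -0.14 to 0.15 and the adjusted p by edgeR was 0.982, so changes beyond that interval were outside what these libraries allow at 95%.

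**Figure D3:**
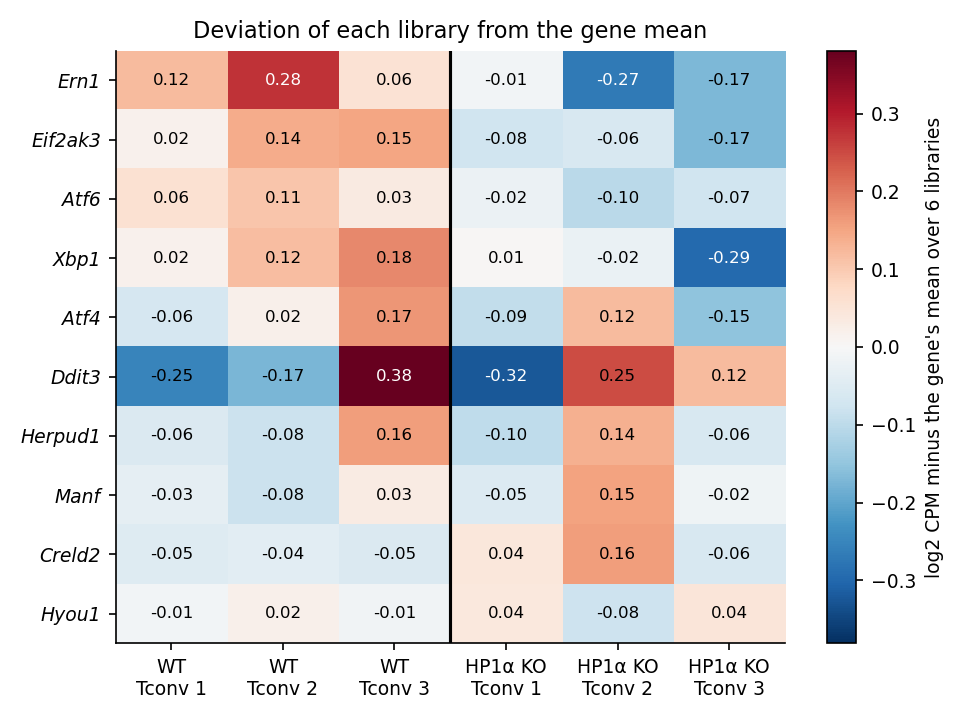
Deviation of each library from the mean of each UPR gene over the 6 libraries, on the log2 CPM scale, with numbers in the cells and a line between the groups. The sensor rows are above 0 in every library with WT Tconv and below 0 in every library with HP1α KO Tconv, while Ddit3 varies most, from -0.32 to 0.38.

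Libraries differed in which genes they held high. Library WT-3 was the highest library for 5 of the 10 genes (Xbp1, Atf4, Ddit3, Herpud1 and Eif2ak3), and it was also the library with the most red cell and neutrophil transcripts, whose part in these levels was not tested. Library KO-3 was the lowest for 4 and KO-2 for 3. KO-2, the library with few mitochondrial counts, was the lowest for Ern1, Atf6 and Hyou1 and the highest for Manf and Creld2. When both of these unusual libraries were left out, the edgeR log2 fold changes of Ern1, Eif2ak3, Atf6 and Xbp1 were -0.29, -0.20, -0.13 and -0.20, and the smallest adjusted p among them was 0.137.

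The 3 genes outside the stress lists with the profile closest to the mean profile of the 10 genes over the 6 libraries, among 8756 tested genes with a mean of at least 10 CPM, were Acad9, which encodes a mitochondrial assembly factor, Slc15a4, a transporter of endolysosomes, and Zfp672, with root mean square distances of 0.018, 0.019 and 0.021 in log2 units.

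Levels were compared between genes per length, as counts per kilobase of the first annotated transcript per 1e6 counts. Atf4 was the highest, at 138 ± 11.4 with WT Tconv and 130.2 ± 13.3 with HP1α KO Tconv (SD, n = 3). Manf and Xbp1 followed, at 79.8 ± 3.11 and 77.5 ± 4.50 with WT Tconv, which did not differ beyond their spread. With HP1α KO Tconv the level of Manf was 83.1 ± 6.42 and that of Xbp1 67.3 ± 7.45, and Manf was above Xbp1 in each of the 3 libraries. The counts of both genes are uncertain, as both overlap other genes in the annotation. With WT Tconv, Hyou1 at 35.7 ± 0.445 and Herpud1 at 35.4 ± 3.33 likewise did not differ beyond their spread, ahead of Creld2 at 23.0 ± 0.109 and Ddit3 at 16.2 ± 4.12. By this length the 3 sensor genes were the lowest, with Eif2ak3 at 13.1 ± 0.672, Atf6 at 11.6 ± 0.295 and Ern1 at 5.27 ± 0.421 with WT Tconv. Eif2ak3 lay within the SD of the Ddit3 mean, although below Ddit3 in each of the 3 libraries with WT Tconv. The order depended on the length used, since over all annotated exonic bases Manf fell from rank 2 to rank 8 and Ddit3 from rank 7 to rank 10, while Herpud1 rose to rank 2. Eif2ak3, Atf6 and Ern1 were then at ranks 6, 7 and 9.

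The windows from 250 bases before to 50 after the start of the canonical transcript (GRCm39, later GENCODE annotation) were searched on both strands for 4 motifs of the response. The ER stress element ERSE (CCAAT and CCACG with 9 bases of any kind between them) was found in 0.138% of the 13068 windows of protein-coding genes tested, ERSE-II (ATTGG and CCACG with 1 base of any kind between them) in 0.0995%, the UPR element (TGACGTGG) in 0.834% and the CHOP-ATF4 element (TGATGNAA) in 2.43%. All 4 target genes held ERSE or ERSE-II in the window of this 1 transcript start. In the windows of the same length from RefSeq (GRCm38.p6), Herpud1 held ERSE-II and Creld2 held ERSE, and Manf and Hyou1 were not matched. Neither ERSE nor ERSE-II was found in the canonical windows of the 6 sensor and transcription factor genes, which says only that these letters are not there. The stretches that hold them are given because the 4 targets share ERSE or ERSE-II, and a CHOP-ATF4 element before the canonical start of Ddit3, which its RefSeq window does not hold, follows for comparison, with the motif in capitals and each read on the strand of the gene:
Herpud1 ERSE-II, chr8:95112995-95113024, plus: ccgggcgctgATTGGGCCACGttggacact
Manf ERSE-II, chr9:106769229-106769258, minus: ctcctgggcaCGTGGACCAATgaggatgca
Hyou1 UPR element and ERSE-II, chr9:44290650-44290679, plus: gcgaaccgTGACGTGGCCCAATccgcagcc
Hyou1 ERSE-II, chr9:44290743-44290772, plus: cagaggggcgggtcttctaCGTGGACCAAT
Creld2 ERSE, chr15:88703697-88703766, plus: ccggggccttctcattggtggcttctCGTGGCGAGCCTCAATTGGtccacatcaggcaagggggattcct
Ddit3 CHOP-ATF4 element, chr10:127126350-127126379, plus: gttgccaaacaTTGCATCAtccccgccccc

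The stretches shown for Herpud1, Manf, Hyou1 and Ddit3 meet an annotated exon of these or other genes, so their place before a start refers to the transcript chosen. The ERSE-II copies of Manf and Hyou1, the ERSE of Creld2 and the CHOP-ATF4 elements were on the strand opposite to the gene, and the Hyou1 UPR element overlaps an ERSE-II. The ERSE-II of Herpud1 begins 32 bases before the start, and that gene also held a CHOP-ATF4 element. Over all windows, 31 genes (0.237%) held ERSE or ERSE-II, of which 14 were in the lists used here. Among these 31 genes, 14 were higher and 17 lower with HP1α KO Tconv, with a median log2 fold change of -0.04, against 0.00027 over all windows.

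The wider ER stress pathway was then examined in 5 lists by role, 93 genes of which 91 were tested. None had an adjusted p under 0.05 in edgeR. An unadjusted p under 0.05 was found for 5 higher and 11 lower genes, against 6.98% and 7.52% of all genes tested, and the groups did not overlap for 10 higher and 16 lower genes, against 11.5% and 11.6%. The median log2 fold change of the 91 was -0.03, with 39 higher and 52 lower.

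**Figure D4:**
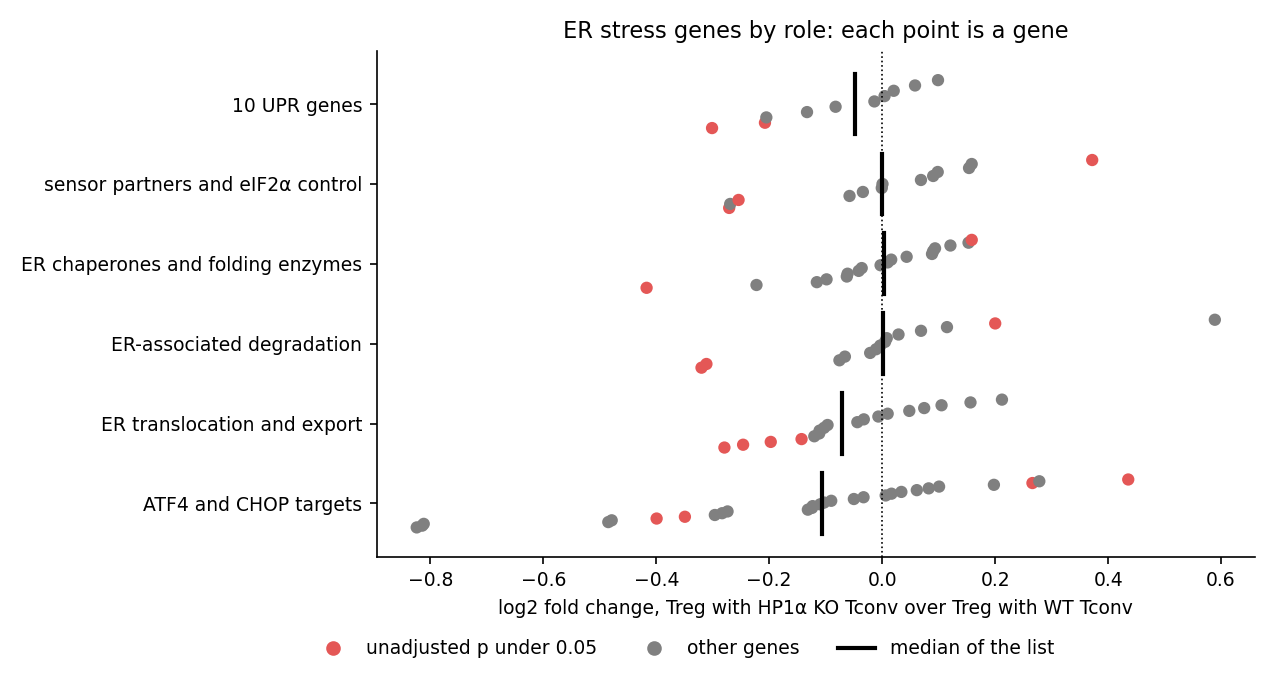
Log2 fold change of each tested gene, HP1α KO Tconv over WT Tconv, for the 10 UPR genes and 5 lists of ER stress genes by role, with the median of each list as a black bar and genes with an unadjusted edgeR p under 0.05 in red. Medians lie between -0.11 and 0.0035, and no gene passed after adjustment.

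Among ER chaperones and folding enzymes, 9 of 18 were higher and 9 lower, with a median of 0.0035. Hspa5, which encodes the chaperone BiP that holds the sensors inactive, was at 1230, 1315 and 1302 CPM with WT Tconv and 1177, 1427 and 1134 CPM with HP1α KO Tconv. The groups overlapped, and the log2 fold change was -0.04 with a 95% interval from -0.27 to 0.19. Over 16 other settings it ranged from -0.15 to 0.023 and kept its sign in 14. It shares 44.2% of its exonic bases with Rabepk on the opposite strand, and its counts are uncertain for the same reason.

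Dnajb9 (ENSMUSG00000014905, chromosome 12, 44252341 to 44257171, minus strand), a cochaperone known as an XBP1 target and as a repressor of IRE1α, had the smallest unadjusted p of the pathway lists. It was at 99.1, 107.7 and 98.3 CPM with WT Tconv and at 78.7, 75.6 and 74.3 CPM with HP1α KO Tconv. Every library with HP1α KO Tconv lay well below every library with WT Tconv. Its log2 fold change was -0.42 (standard error 0.0664), with a 95% interval from -0.57 to -0.26. The edgeR adjusted p was 0.209, which did not pass, the DESeq2 adjusted p was 0.000676, and edgeR without a filter beyond 1 count gave an adjusted p of 0.038. Over 16 other settings the log2 fold change lay between -0.44 and -0.36, with adjusted p-values from 9.4e-05 to 0.437.

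Among sensor partners and eIF2α control, 7 of 13 were higher and 6 lower. Traf2, an adaptor that binds active IRE1α, was at 87.4, 76.8 and 81.2 CPM with WT Tconv and 101.6, 116 and 99.6 CPM with HP1α KO Tconv. All libraries with HP1α KO Tconv were higher, and the log2 fold change was 0.37 (standard error 0.0843). The adjusted p was 0.209 with edgeR and 0.0185 with DESeq2. Ppp1r15b, the constitutive subunit that directs dephosphorylation of eIF2α, was at 294, 308 and 315 CPM and at 265, 250.2 and 253 CPM, and its log2 fold change was -0.25, which gave an adjusted p of 0.209 by edgeR and 0.0468 by DESeq2.

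Among genes of ER-associated degradation, 7 of 14 were higher and 7 lower. Herpud2, a relative of Herpud1, was at 62.1, 64.0 and 64.6 CPM with WT Tconv and 56.6, 46.6 and 50.4 CPM with HP1α KO Tconv. The groups did not overlap, unlike those of Herpud1, and Herpud2 had a log2 fold change of -0.31 and an adjusted p of 0.209 by edgeR. Whether the fold changes of the pair differ was not tested.

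Among genes of ER translocation and export, 6 of 18 were higher and 12 lower, with a median of -0.07, and the 4 with an unadjusted p under 0.05 (Serp1, Sec62, Sec61g and Ssr1, named after their values were seen) were all lower, against 7.52% of all genes tested lower and 14.5% in either direction. Among the ATF4 and CHOP targets, 10 of 28 were higher and 18 lower, with a median of -0.11. Without library WT-3 15 of these were higher and 13 lower, with a median of 0.01. Asns, the asparagine synthetase and singled out after its values were seen, was at 26.1 CPM in that library and at 8.15 to 10.02 CPM in the others, and its log2 fold change went from -0.81 to -0.17 without it.

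Wars, a tRNA synthetase for tryptophan listed as an ATF4 target, was at 57.8, 61.6 and 67.3 CPM with WT Tconv and 90.4, 85.0 and 77.2 CPM with HP1α KO Tconv. Every library with HP1α KO Tconv was higher. This was a log2 fold change of 0.44 (standard error 0.0859), at an adjusted p of 0.209 by edgeR and 0.00486 by DESeq2. Phgdh, the first enzyme of serine synthesis, had a log2 fold change of 0.27 and an adjusted p of 0.231 by edgeR, with pseudogenes at 95% identity or more that can share its reads. DESeq2 called 4 pathway genes in all, with Dnajb9 and Ppp1r15b lower and Wars and Traf2 higher. Of the 12097 genes it adjusted DESeq2 called 4.35%, and over the whole table it called 526 of 29199 genes. A count of 4 among the 93 listed genes is near the first share. The 93 include any listed genes without an adjusted p, so the 2 shares do not have the same base. On the genes kept by filterByExpr, a setting chosen after seeing the data, DESeq2 called 6 of 91 pathway genes and 698 of all 18321 genes. Whether these shares differ was not tested.

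**Figure D5:**
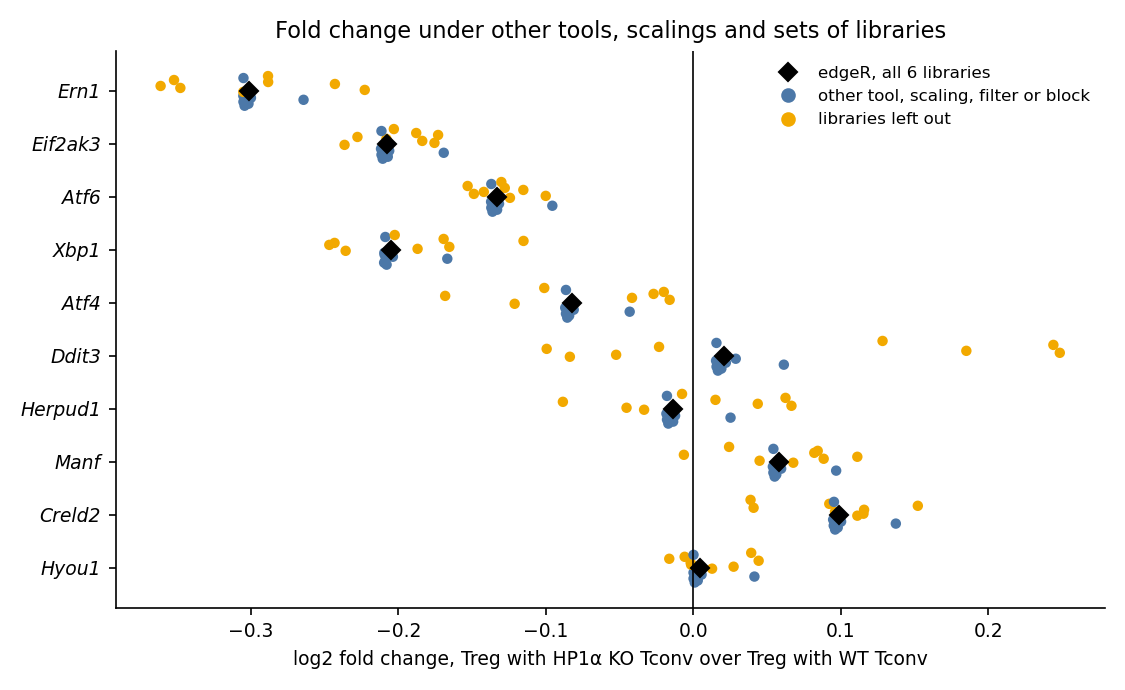
Log2 fold change of each UPR gene under the reported edgeR fit (diamond) and 16 other settings (points), with other tools, scalings, filters or the replicate block in blue and libraries left out in yellow. Ern1, Eif2ak3, Atf6, Xbp1 and Atf4 stay below 0 and Creld2 above 0 in all of them, while Ddit3, Herpud1, Manf and Hyou1 cross 0.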

How the data were processed

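The deposited table holds estimated counts per gene, whole numbers and not normalized, which the authors made with the nf-core RNA-seq pipeline from paired-end reads of a stranded total RNA kit, with STAR alignment to GRCm39 and Salmon quantification. Salmon shares ambiguous reads between overlapping genes by a model. All 6 libraries entered the edgeR (version 4.0.16, R version 4.3.3) quasi-likelihood test with robust estimation, TMM scaling, the filterByExpr filter and group as the sole term. P-values were adjusted by Benjamini-Hochberg over 18321 genes, with a threshold of 0.05. CPM is the count per 1e6 of the TMM-scaled total, except for marker sums, which use library totals. Standard errors were obtained by dividing the size of the fitted log2 fold change by the root of its F statistic. DESeq2 (version 1.42.0), limma-voom (version 3.58.1), other scalings, filters, a replicate block and leaving out libraries were alternatives. DESeq2 was run on the whole table.

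The members and lists were chosen with earlier results of these data known. Named were the 10 genes, Hspa5, pathway genes passing the threshold or otherwise, for each direction, the 3 with the lowest unadjusted p, and the 3 genes outside the lists with the nearest mean profile. Red cell, neutrophil, macrophage, B cell, plasma cell, Treg and handling stress lists were summed. Macrophage markers summed to 185 CPM in WT-3 and to 16.0 to 51.5 CPM elsewhere, and handling stress genes to 2085 to 2609 CPM with WT Tconv and 2066 to 2603 CPM with HP1α KO Tconv. Positions and lengths came from a later annotation of GRCm39 than that of the authors. No pair of libraries of a group agreed within sampling noise, so none was treated as a repeat deposit of another.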

Additional observations from a re-analysis of the deposited data

How the results depend on the processing

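The count of UPR genes with an adjusted p under 0.05 was 0 in every setting run. The count over all genes was 0 in edgeR and 526 in DESeq2, 38 in edgeR without a filter beyond 1 count, 1 with the replicate block, and 0 to 2 when single libraries were left out. Settings chosen after seeing the data gave 698 with DESeq2 on the genes kept by filterByExpr, 181 with DESeq2 when WT-3 was left out, and 15 with edgeR when WT-3 and KO-2 were. The count of pathway genes was 4 in DESeq2, 6 and 2 in the first and second of these added DESeq2 fits, and 1 (Dnajb9) in edgeR without the filter. The causes were not tested.

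The signs of Ern1, Eif2ak3, Atf6, Xbp1, Atf4 and Creld2 held in all 16 alternatives. Ern1 ranged from -0.36 to -0.22 (adjusted p 0.0724 to 0.465 over edgeR, limma-voom and DESeq2) and Eif2ak3 from -0.24 to -0.17 (0.121 to 0.498). When single libraries were left out, the sign of 4 genes changed, with log2 fold changes from -0.0994 to 0.248 for Ddit3, -0.0884 to 0.0666 for Herpud1, -0.00636 to 0.111 for Manf and -0.0163 to 0.0443 for Hyou1. Herpud1 was also at 0.0253 with total counts only, and DESeq2 with WT-3 left out gave 0.0625 for Herpud1 and -0.00584 for Hyou1. The median over the 10 genes ranged from -0.11 to -0.0087 over the single libraries left out.

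No pairing by replicate number was evident. Same-numbered libraries had correlations of -0.04, 0.18 and 0.12 of their deviations from the group means, and not every library correlated best with its own number. This check on 3 libraries a group cannot exclude that libraries were paired. With the replicate block, 0 UPR genes and 0 pathway genes passed. With 3 libraries a group, log2 fold changes inside the printed 95% intervals were not resolved, which for Ddit3 spanned -0.49 to 0.53.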
